A study of Mus musculus with 24 samples.

Results

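Described here is the response of NIH 3T3 cells (mouse fibroblasts that grow without limit and were derived from embryos) to YAP5SA, a form of the transcriptional coactivator YAP in which the serines that the LATS kinases phosphorylate are replaced by alanine. Its members are the 6 libraries labelled YAP5SA (replicates 1 to 3) and Empty Vector (EV, replicates 1 to 3), of 24 NIH 3T3 libraries in 8 groups, and within them the 14361 genes, of 39017 identifiers, whose mean count over the 24 libraries reached 5. All lines carry the pBabeNeo retroviral vector and were selected with G418. The YAP5SA line expresses the tagged human protein from that vector, the EV line carries the vector without an insert, and the lines are pools, not clones. Both groups had been confluent for 48 h when RNA was taken. Where a value is set beside another group, that group is TAZ4SA, the same type of mutant of the paralog TAZ (also confluent for 48 h), or EVsub, the empty vector cells collected while sub-confluent, with 3 libraries each. By the study's methods the replicates of a group came from separate transductions with stable selection, so the p-values measure the spread between these transduced lines.

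The libraries held 19055901 to 26390310 counts in YAP5SA and 19981310 to 22419096 in EV, and no pair of replicates was close enough in its counts to be a single library deposited a second time. Levels are given as CPM (read counts scaled to a common library size after TMM, a correction for RNA composition), with the values of a group always in the order of its libraries 1, 2 and 3. A gene was called differentially expressed (DE) at an adjusted p under 0.05 in edgeR's quasi-likelihood test, fitted across all genes with all 24 libraries, and every adjusted p below comes from that test. Fold changes are log2 values of YAP5SA over EV. The value after ± is an approximate standard error, the absolute log2 value divided by the square root of the test's F statistic. Of 12 fibroblast marker genes all were detected in both groups, and 3 rose, 6 fell and 3 were not called, with a median log2 fold change of -0.82. Among those not called was Col1a2, a chain of type I collagen, at 8434, 8751 and 8351 CPM in YAP5SA and 7344, 8561 and 8119.7 in EV. In bulk RNA fewer cells of a type and less RNA per cell cannot be told apart. NIH 3T3 cells are known to lack the Ink4a/Arf locus, and Cdkn2a and Cdkn2b, which lie there, had 0 counts in all 6 libraries.

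Endogenous Yap1 was 102, 111 and 91.6 CPM in YAP5SA and 193, 169.9 and 189 in EV, and it fell (log2 fold change -0.86 ± 0.08, adjusted p = 8.13e-09). Every YAP5SA library was below every EV library for Yap1, so this mouse gene's count does not show the human insert. Wwtr1, which encodes TAZ, was at 143, 165 and 138 CPM in YAP5SA and 129.6, 137 and 136 in EV and was not called (log2 fold change 0.15 ± 0.09, adjusted p = 0.137), but was called lower, at -0.23, with scaling by total count alone.

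YAP and TAZ have no DNA-binding domain and act through the TEAD transcription factors, which bind the sequence GGAATG on either strand. In confluent cells the Hippo kinases MST and LATS phosphorylate YAP, which then stays in the cytoplasm or is degraded. The alanine mutant escapes this control, so that the comparison with confluent empty vector cells asks what YAP does when it is active at a density at which it would normally be held back. No group expressed YAP without the mutations from the vector. The added amount of YAP and its escape from the kinases therefore cannot be told apart.

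Of the genes tested, 71.2% were DE between YAP5SA and EV, 36.3% higher and 34.9% lower, and this is the background against which each gene list should be read. With a minimum of a 2-fold change, 39.6% were DE (18.6% higher and 20.9% lower). The programs with the largest share of members that rose were the cytosolic ribosomal proteins, p53 targets, TEAD and VGLL factors (6 tested, 0 with a 2-fold rise), the amino acid supply genes of the ATF4 pathway, and glycolysis. Those with the largest share that fell were the mitochondrially encoded genes, the small leucine-rich proteoglycans, matrix proteases, cholesterol synthesis, Hox genes and mesenchymal transcription factors. The plot of called members by program gives these shares for all 47 lists. Scaling by the total count alone, without TMM, lowered the median fold change of all genes by 0.37 on the log2 scale and changed the split of DE genes from 5208 higher and 5012 lower to 3565 higher and 6775 lower. For the counts against EV, where that turns the balance of rises and falls in a list, or any alternative with the same genes tested moves a count by more than 1.5 times, it is stated beside the list.

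**Figure D1:**
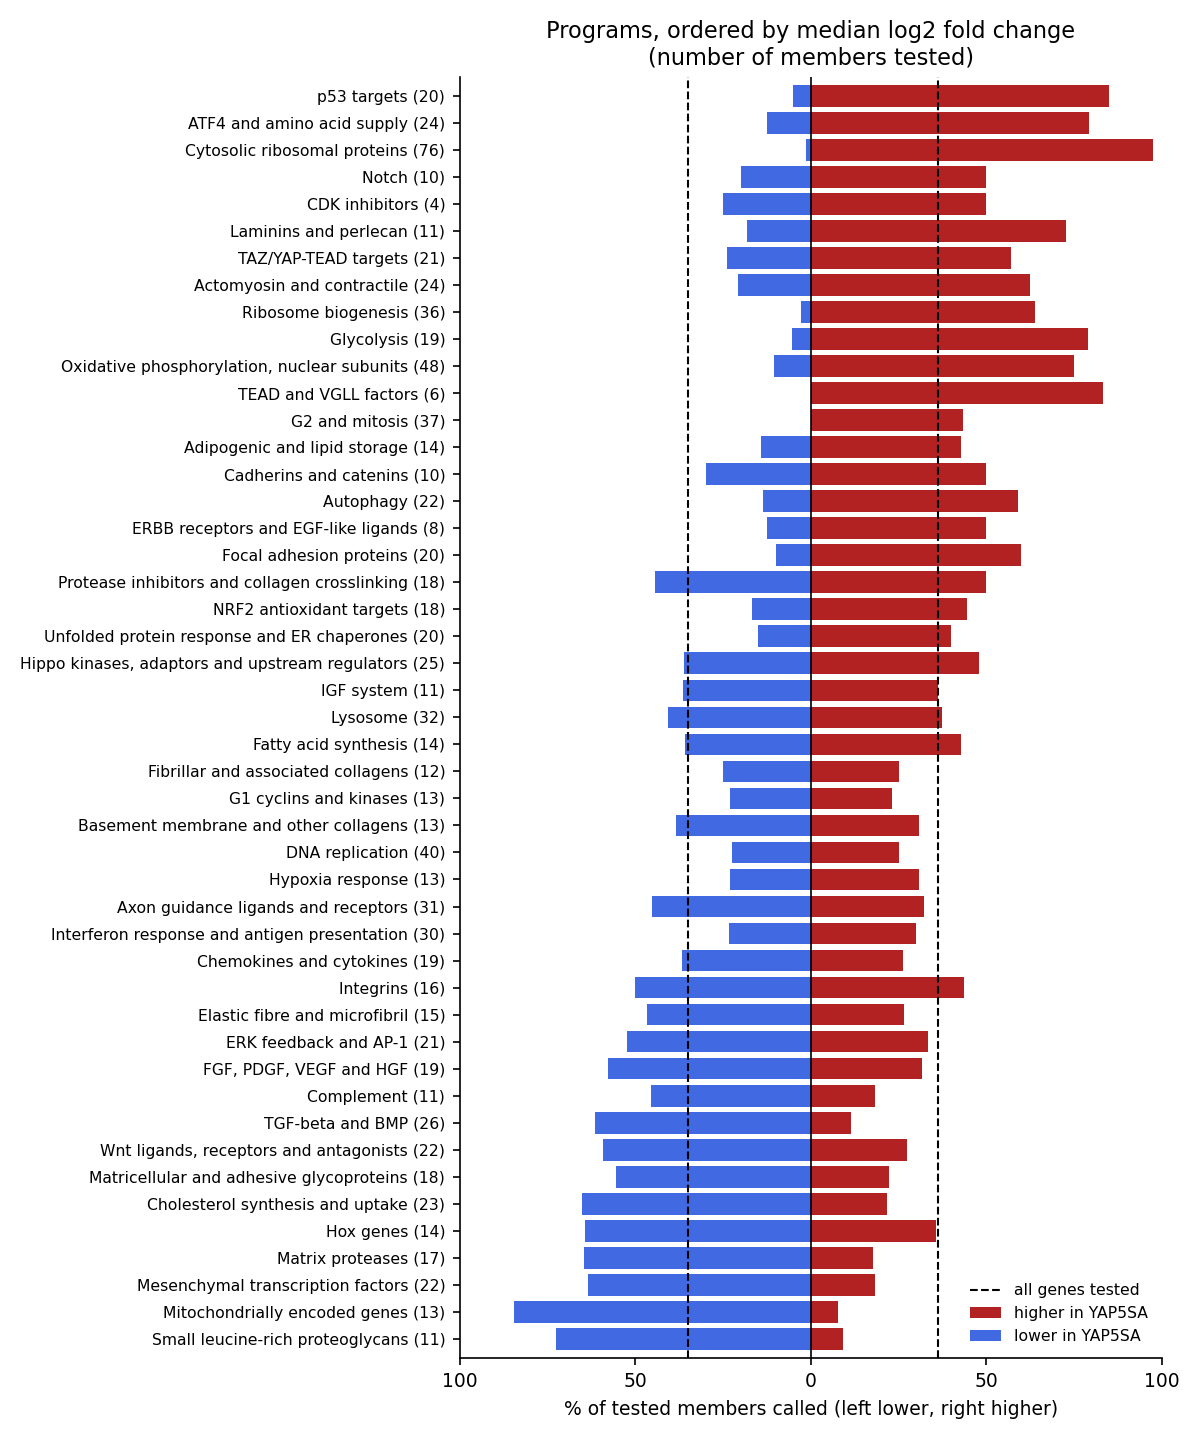
Share of the tested members of each of 47 gene lists that were called higher (red, to the right) or lower (blue, to the left) in YAP5SA than in EV, in % of the members tested (number in parentheses), ordered by the median log2 fold change of the list. The dashed lines give the shares over all genes tested, 36.3% higher and 34.9% lower; the p53 targets are at the top and the small leucine-rich proteoglycans at the bottom.

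Of 23 canonical TAZ/YAP-TEAD targets 21 passed the filter on low counts, and 12 of these rose and 5 fell, with a median log2 fold change of 1.02 against 0.01 over all genes tested. Igfbp3 (0 counts in both groups) and Nt5e (2 counts in each) did not pass. The 12 that rose were Ccn1, Ccn2, Ankrd1, Nuak2, Amotl2, Ajuba, Crim1, Ptpn14, Lats2, Gadd45a, Ccdc80 and Axl. The 250 bases before the RefSeq start site were searched for GGAATG on both strands, the only motif searched. Of the 14 tested targets with a promoter sequence in RefSeq 7 (50%) held the motif. These were 7 of the 9 that rose (77.8%) and 0 of the 2 that fell, against 14.9% of the genes that rose at least 2-fold, 13.5% of those that fell at least 2-fold, 13% of the tested genes with a promoter and 14.4% of all 27025 promoters. The list is made of genes known from earlier work to be bound by TEAD, so these shares describe the list and are not a test. Of the 7 promoters 5 are shown here as examples (GRCm38.p6, 5′ to 3′ on the gene's strand, with the motif or its reverse complement in capitals), and those of Crim1 and Axl are left out for length. The matches lie 103 bases before the start in Ccn1 (chr3:145650063-145650108, minus strand), 210 and 123 bases before it in Ankrd1 (chr19:36119942-36120074, minus strand), 65 bases before it in Amotl2 (chr9:102717719-102717764, plus strand), 186 and 164 bases before it in Ajuba (chr14:54577800-54577867, minus strand) and 146 bases before it in Ptpn14 (chr1:189728102-189728147, plus strand).
Ccn1: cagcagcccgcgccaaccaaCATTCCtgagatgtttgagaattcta
Ankrd1: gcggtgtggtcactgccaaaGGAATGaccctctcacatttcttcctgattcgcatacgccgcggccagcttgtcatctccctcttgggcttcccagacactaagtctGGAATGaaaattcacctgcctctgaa
Amotl2: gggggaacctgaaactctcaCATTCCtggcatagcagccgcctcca
Ajuba: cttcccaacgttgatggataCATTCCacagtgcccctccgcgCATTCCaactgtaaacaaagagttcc
Ptpn14: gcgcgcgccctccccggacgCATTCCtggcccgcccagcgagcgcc

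The matricellular protein genes Ccn1 and Ccn2, which encode secreted ligands of integrins, changed most among the targets. Ccn1 (ENSMUSG00000028195, chr3:145646976-145649981 in mm10) was 2461, 1731 and 2191 CPM in YAP5SA and 42.9, 63.8 and 61.5 in EV (log2 fold change 5.25 ± 0.43, adjusted p = 5.36e-10). The lowest YAP5SA library was far above the highest EV library. Ccn2 was 426, 174 and 399 CPM in YAP5SA and 14.6, 18.3 and 19.9 in EV (log2 fold change 4.24 ± 0.43, adjusted p = 1.47e-08), and YAP5SA library 2 was the lowest of its group by more than 2-fold. Ankrd1, an ankyrin repeat protein first known from heart muscle, was 204, 162 and 171 CPM against 15.7, 31.5 and 18.6 (log2 fold change 3.03 ± 0.33, adjusted p = 3.99e-08). These 3 genes are the usual readouts of YAP activity, and in none of them did the groups overlap (75.5% of all tested genes had no overlap, 38.5% with YAP5SA higher and 37% with it lower). A second set codes for regulators of the pathway itself. Amotl2, an angiomotin that binds YAP, was 986, 829 and 967 CPM against 182, 240.4 and 231 (log2 fold change 2.09 ± 0.16, adjusted p = 2.18e-10). Lats2, one of the kinases the mutant escapes, was 167, 144 and 134 CPM against 51.97, 57.1 and 59.2 (log2 fold change 1.41 ± 0.14, adjusted p = 8.45e-09). Both were higher in each YAP5SA library than in any EV library, as were Ptpn14, a phosphatase that binds YAP (1.67, adjusted p = 1.62e-11), Ajuba, a LIM protein that inhibits LATS (1.76, adjusted p = 1.34e-10), and the kinase gene Nuak2 (2.11, adjusted p = 6.16e-10). The receptor tyrosine kinase gene Axl rose less (0.97, adjusted p = 1.09e-06).

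**Figure D2:**
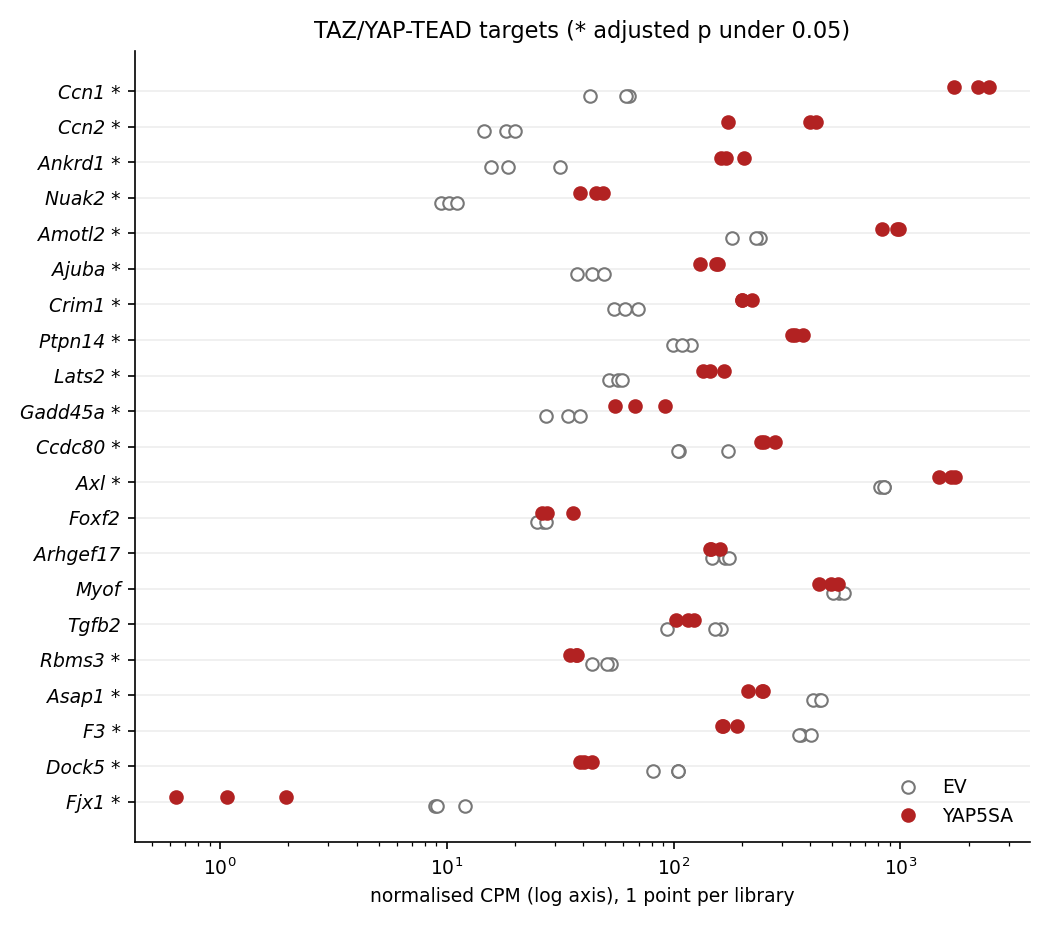
CPM of the 21 tested TAZ/YAP-TEAD targets in the 3 YAP5SA (red) and 3 EV libraries (open grey circles), 1 point per library, on a log axis, ordered by log2 fold change; an asterisk marks an adjusted p under 0.05. Ccn1 at the top lies at 1731 CPM or more in YAP5SA and at 63.8 or less in EV, and the targets from Rbms3 downward are lower in YAP5SA.

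Not all targets followed. Fjx1, a regulator of the planar polarity cadherins, was 1.95, 0.638 and 1.08 CPM in YAP5SA and 8.82, 9.07 and 12.03 in EV and fell (log2 fold change -3.02 ± 0.30, adjusted p = 8.06e-09). F3, which encodes tissue factor, the starter of coagulation, was 166, 191 and 163 CPM against 366, 402 and 358 (log2 fold change -1.11 ± 0.19, adjusted p = 2.2e-05). Dock5 (-1.25, adjusted p = 3.02e-08), Asap1 (-0.88, adjusted p = 2.12e-07) and Rbms3 (-0.43, adjusted p = 0.0451) also fell, and Foxf2, Arhgef17, Myof and Tgfb2 were not called, with log2 values from -0.26 to 0.19. The call of Rbms3 was lost when any library other than EV 1 was left out. With scaling by total count alone Arhgef17, Myof and Tgfb2 also fell, giving 12 targets that rose and 8 that fell, and Tgfb2 fell without EV library 2 as well.

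Set directly against TAZ4SA, where 42.4% of all tested genes were DE (19.6% higher in YAP5SA and 22.8% lower), 8 targets were higher in YAP5SA. With only the libraries of these groups in the fit 2910 genes were DE in place of 6087. All list counts and single genes set against TAZ4SA, here and below, are given from the fit of all 24 libraries only. The TAZ4SA libraries were less alike than those of YAP5SA. The median absolute log2 deviation of a library from the rest of its group was 0.209 to 0.367 in TAZ4SA and 0.131 to 0.195 in YAP5SA. Ccn1 reached 299, 489.7 and 337 CPM in TAZ4SA, and the difference from YAP5SA was a log2 value of 2.50, adjusted p = 2.78e-05. For Ajuba (1.05, adjusted p = 2.64e-06), Axl (0.82, adjusted p = 5.73e-05) and Amotl2 (0.68, adjusted p = 0.00144) the differences were smaller and in the same direction. Ccn2 (0.29, adjusted p = 0.562) and Ankrd1 (-0.42, adjusted p = 0.276) were not called, and the TAZ4SA libraries spread widely for both (Ccn2 174, 208 and 437 CPM, Ankrd1 171, 171 and 374). Sub-confluent empty vector cells had 224, 203 and 57.6 CPM of Ccn1 and 143, 129 and 37.7 of Ccn2, and YAP5SA was above them by 3.72 and 1.69 on the log2 scale (adjusted p = 4.37e-08 and 0.000533). In that comparison 68.8% of all tested genes were DE, 33.9% higher in YAP5SA and 34.9% lower.

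Among the TEAD factors and the VGLL proteins that compete with YAP for them, 5 of 6 tested rose and 0 fell by edgeR, 0 by DESeq2 and 0 at an unadjusted p under 0.05. The rises were small, with 0 of them reaching 2-fold, and with scaling by total count alone 3 rose. Tead1 was 274, 289 and 265 CPM against 171, 161 and 160.5 (log2 fold change 0.75 ± 0.12, adjusted p = 6.18e-06), Tead2 rose by 0.78, and Vgll4, which represses TEAD, was 125, 132 and 134 CPM against 86.6, 53.4 and 75.2 (log2 fold change 0.86 ± 0.14, adjusted p = 9.23e-06). Of 25 tested Hippo kinases, adaptors and upstream regulators 12 rose and 9 fell, a split that turns to 10 and 11 when libraries are scaled by total count alone. Wwc1 (KIBRA, an upstream activator of LATS) was 86.7, 65.2 and 74.9 CPM against 12.7, 14.2 and 14.5 (log2 fold change 2.45 ± 0.21, adjusted p = 9.55e-10), and the giant cadherin gene Fat1 was 540.0, 377 and 442 against 92.6, 109 and 98.1 (log2 fold change 2.18 ± 0.20, adjusted p = 3.47e-09). Among the genes that fell were a Hippo kinase and a cofactor. Mob1b, the coactivator of LATS, was 15.9, 17.4 and 16.2 CPM against 49.9, 66.5 and 57.3 (log2 fold change -1.81 ± 0.20, adjusted p = 5.83e-08), and Stk3, which encodes MST2, was 32.6, 40.8 and 33.9 against 90.6, 112 and 91.5 (log2 fold change -1.45 ± 0.21, adjusted p = 2.4e-06). Amot, a relative of Amotl2, fell as well (-1.32, adjusted p = 5.55e-09), while Amotl2 rose.

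The p53 targets had the highest median of the 47 programs, a log2 value of 2.14, with 17 of 20 tested members higher and 1 lower. With only these groups in the fit 2 were lower, and with scaling by total count alone 3. Cdkn1a (ENSMUSG00000023067, chr17:29090976-29100727), which encodes the CDK inhibitor p21, was 1294, 1015 and 1039 CPM in YAP5SA and 60.2, 44.2 and 48.01 in EV (log2 fold change 4.46 ± 0.29, adjusted p = 1.85e-11). It stood at 539, 813 and 307 CPM in TAZ4SA, below YAP5SA by a log2 value of 1.01 (adjusted p = 0.00274), and at 81.2, 107 and 80.8 in sub-confluent cells. Pmaip1 (NOXA, a promoter of apoptosis) was 6.67, 6.87 and 5.45 CPM against 0.0844, 0.286 and 0.177 (log2 fold change 5.10 ± 0.46, adjusted p = 2.45e-09), and the TNF family receptor gene Eda2r was 61.9, 68.3 and 67.8 against 6.797, 8.45 and 4.34 (log2 fold change 3.34 ± 0.26, adjusted p = 2.78e-10). Neither gene differed from TAZ4SA by a called amount (-0.19, adjusted p = 0.661 and -0.09, adjusted p = 0.787). The exception was Sesn1, a stress-induced regulator of TORC1, at 13.2, 17.3 and 15.2 CPM against 66.2, 50.7 and 61.3 (log2 fold change -1.96 ± 0.14, adjusted p = 6.93e-11). Of 4 tested CDK inhibitor genes 2 rose and 1 fell (2 fell with scaling by total count alone). Besides Cdkn1a, Cdkn2d (p19 INK4d) rose (2.09, adjusted p = 2.57e-07) and Cdkn2c (p18 INK4c) fell (-0.95, adjusted p = 9.68e-06).

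Cell cycle genes showed a mixed picture at this density. Of 37 tested genes of G2 and mitosis 16 rose and 0 fell by edgeR (0 by DESeq2 and 0 at an unadjusted p under 0.05, but 5 with only these groups in the fit or with no count filter, and 1 without EV library 1). With EV library 2 left out 25 rose, and with scaling by total count alone 10 rose and 4 fell. Nek2, a centrosome kinase, was 38.6, 49.996 and 64.6 CPM in YAP5SA and 8.401, 17.6 and 7.57 in EV (log2 fold change 2.19 ± 0.34, adjusted p = 6.86e-06). Ube2c, the E2 enzyme of the anaphase-promoting complex, was 51.5, 84.3 and 77.2 against 13.003, 28.4 and 13.2 (log2 fold change 1.97 ± 0.35, adjusted p = 2.88e-05). EV library 2 was the highest of its group for both. Of 40 DNA replication genes 10 rose and 9 fell, and with scaling by total count alone 4 rose and 15 fell. Rrm1, the large subunit of ribonucleotide reductase, was 391, 345 and 408 CPM against 100.1, 115 and 92.1 (log2 fold change 1.90 ± 0.23, adjusted p = 1.87e-07), whereas Pola1, the catalytic subunit of polymerase alpha, was 6.88, 6.03 and 4.31 against 23.7, 41.1 and 23.2 (log2 fold change -2.34 ± 0.41, adjusted p = 2.77e-05). Against sub-confluent cells most of both lists were lower: 32 of the 37 G2 and mitosis genes and 30 of the 40 replication genes were lower in YAP5SA, and 0 and 3 were higher. Of 13 G1 cyclins and kinases 3 rose and 3 fell, but 5 fell with only these groups in the fit, 6 with upper-quartile scaling, and with scaling by total count alone 2 rose and 8 fell. Myc was 134, 134 and 145 CPM against 43.1, 57.7 and 52.7 (log2 fold change 1.43 ± 0.16, adjusted p = 3.92e-08), and was lower in YAP5SA than in TAZ4SA (-0.60, adjusted p = 0.00327).

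The list with the most members that rose was that of the ribosome. Of 76 tested genes for cytosolic ribosomal proteins 74 rose and 1 fell, with a median log2 fold change of 1.35, and 66 rose with scaling by total count alone. Rpl13a was 4212, 5463 and 4609 CPM in YAP5SA and 1047, 903 and 951 in EV (log2 fold change 2.30 ± 0.20, adjusted p = 1.03e-09), and Rps6, the substrate of the S6 kinases, was 5734, 8210.4 and 6162 against 2305, 1955 and 2189 (log2 fold change 1.64 ± 0.19, adjusted p = 8.58e-08). The elongation factor genes rose too. Eef2, which moves the ribosome along the message, was 26195, 33608 and 28575 CPM against 6642, 5890.0 and 6080.1 (log2 fold change 2.25 ± 0.23, adjusted p = 1.72e-08), and Eef1a1, which delivers aminoacyl-tRNA, was 27513, 37835 and 28294 against 13516, 12024 and 12915 (log2 fold change 1.28 ± 0.20, adjusted p = 7.24e-06). Many of these genes have processed pseudogenes, so their counts are uncertain where reads could be split. The ribosomal protein genes held 10.8% to 13.8% of the counts in YAP5SA and 5.57% to 6.69% in EV. The assembly factors followed: of 36 ribosome biogenesis genes 23 rose and 1 fell (Nop58, -0.63, adjusted p = 0.0327, a call that is lost without EV library 2 or 3 or YAP5SA library 1 or 3; 2 to 4 genes fell with DESeq2, upper-quartile scaling, only these groups in the fit, another count filter or without EV library 1, and 8 with total count scaling), with Noc2l, a nucleolar protein, at 172, 167 and 189 CPM against 43.4, 43.1 and 41.4 (log2 fold change 2.05 ± 0.13, adjusted p = 1.8e-11). In TAZ4SA the ribosomal protein genes were close to YAP5SA, with 1 of 76 above and 3 below in the direct test, while 74 were above the sub-confluent cells and 1 below.

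Ribosomal protein genes are short and abundant, and fold changes over all genes ran with both properties. The median log2 fold change was 0.37 for genes with at most 1366 exonic bases and -0.31 for those with at least 8763, and it was -0.39 for genes with a mean of at most 1.16 CPM and 0.43 for those with at least 95.8. The part of transcript length, level or RNA quality in the ribosomal result was not tested.

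**Figure D3:**
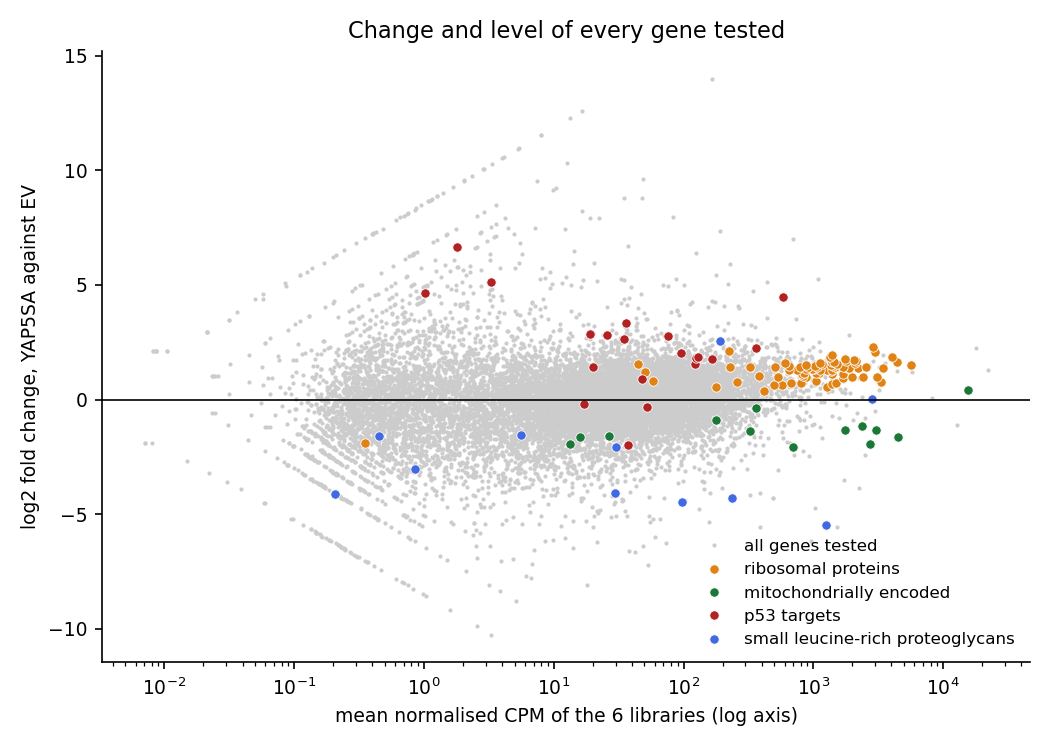
Log2 fold change of YAP5SA over EV against the mean CPM of the 6 libraries (log axis) for every tested gene with a count in those libraries (grey), with the ribosomal protein genes (orange), mitochondrially encoded genes (green), p53 targets (red) and small leucine-rich proteoglycans (blue) marked. For genes with no count in 1 group the plotted value depends on the prior count of the fit. The ribosomal proteins lie above 0 at high levels apart from 1 called lower, and 11 of the 13 mitochondrial genes were called lower.

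Transcripts of the respiratory complexes were split by genome. The 13 protein-coding genes of the mitochondrial DNA had a median log2 fold change of -1.36, with 11 lower and 1 higher. Of 48 tested nuclear genes for subunits of the complexes 36 rose and 5 fell, with a median of 0.69, and 27 rose and 9 fell with total count scaling. The nuclear genes had a median of 1918 exonic bases and the mitochondrial ones 784, against 4053.5 over all genes tested. The part of length or level was not tested here either. The cytochrome b gene mt-Cytb was 2517, 2339 and 1816 CPM in YAP5SA and 6200.0, 7219 and 7095 in EV (log2 fold change -1.62 ± 0.18, adjusted p = 5.89e-08). The complex I gene mt-Nd1 was 1975, 1704 and 1553 against 3968, 4694 and 4355 (log2 fold change -1.31 ± 0.17, adjusted p = 4.68e-07). The only member that rose, mt-Co1, changed little (0.39, adjusted p = 0.0228), and its call is lost with upper-quartile or total count scaling, with the stricter count filter, and without EV library 2 or YAP5SA library 2. The mitochondrial genes together took 2.00% to 2.20% of the counts in YAP5SA and 3.74% to 4.02% in EV. Of the nuclear subunits, Sdhb of complex II was 164, 157 and 169 CPM against 69.02, 65.7 and 65.9 (log2 fold change 1.29 ± 0.11, adjusted p = 5.42e-10) and Cox5a of complex IV 103, 90.7 and 83.9 against 26.3, 34.9 and 27.5 (log2 fold change 1.65 ± 0.17, adjusted p = 1.26e-08). Ndufa5 fell (-1.47, adjusted p = 8.85e-09). In the fit of all 24 libraries both sides of the split differed from TAZ4SA: 31 nuclear subunits were higher and 2 lower in YAP5SA, and 9 mitochondrial genes were lower.

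Glycolysis rose with 15 of 19 tested genes higher and 1 lower, and 12 were higher and 1 lower than in TAZ4SA. Pfkfb3, which makes the allosteric activator of phosphofructokinase, was 46.3, 70.1 and 50.2 CPM against 9.46, 9.07 and 11.5 (log2 fold change 2.47 ± 0.32, adjusted p = 4.96e-07), and Pfkp, a phosphofructokinase gene, was 81.99, 58.9 and 75.1 against 15.5, 18.3 and 14.2 (log2 fold change 2.17 ± 0.19, adjusted p = 1.92e-09). The glucose transporter gene Slc2a1 was the member that fell, at 50.3, 57.3 and 51.6 CPM against 91.9, 78.9 and 88.2 (log2 fold change -0.70 ± 0.12, adjusted p = 2.5e-05). The pentose phosphate enzymes Taldo1 (2.23, adjusted p = 4.56e-10) and Tkt (1.90, adjusted p = 4.82e-10), which are on the list of NRF2 targets, rose as well, while Gstm1 on the same list fell (-2.19, adjusted p = 5.02e-08). That list as a whole had 8 of 18 genes higher and 3 lower (5 lower with total count scaling), and its median turned from 0.26 to -0.12 with scaling by total count alone. Of 13 hypoxia response genes 4 rose and 3 fell, with Egln3 (2.53, adjusted p = 2.01e-10) and Pdk1 (-2.12, adjusted p = 1.1e-10) at the ends. With EV library 3 or YAP5SA library 2 left out 2 hypoxia genes rose, and with scaling by total count alone 2 rose and 6 fell.

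ATF4 is the transcription factor of the amino acid and integrated stress responses, and 19 of 24 tested genes of its pathway and of amino acid supply rose and 3 fell (median 1.38). Chac1, which degrades glutathione, was 254, 204 and 208 CPM in YAP5SA and 9.37, 12.4 and 13.2 in EV (log2 fold change 4.25 ± 0.23, adjusted p = 1.28e-12). Asns, asparagine synthetase, was 601, 481 and 626 against 70.6, 125 and 83.3 (log2 fold change 2.61 ± 0.22, adjusted p = 5.96e-10). Each YAP5SA library was above each EV library for both genes, and both were also above TAZ4SA (0.98, adjusted p = 0.000426 for Chac1 and 0.84, adjusted p = 0.00235 for Asns). The list as a whole was not higher than in TAZ4SA, with 5 of the 24 genes higher in YAP5SA and 7 lower. Cth, which makes cysteine, was 13.9, 8.096 and 16.2 CPM against 0.718, 2.48 and 1.19 (log2 fold change 3.13 ± 0.61, adjusted p = 9.34e-05). The members that fell were the amino acid carriers Slc38a2 (190.4, 240.1 and 215 CPM against 541, 639 and 553, log2 fold change -1.42 ± 0.15, adjusted p = 1.5e-08), Slc1a4 (-1.003, adjusted p = 1.83e-07) and Slc1a5 (-0.51, adjusted p = 0.0198, not called without EV library 2 or YAP5SA library 2 or 3). Of 20 tested genes of the unfolded protein response 8 rose and 3 fell, led by the ER chaperone gene Hspa5 (1.10, adjusted p = 0.00015), but with scaling by total count alone 5 rose and 7 fell.

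Lipid genes moved apart. Of 23 tested genes of cholesterol synthesis and uptake 15 fell and 5 rose (median -0.90). Hmgcs1, an early enzyme of the mevalonate pathway, was 95.5, 84.2 and 105 CPM in YAP5SA and 262, 431 and 423 in EV (log2 fold change -1.97 ± 0.36, adjusted p = 4.12e-05), and Idi1, an isomerase further down, was 11.96, 9.08 and 12.2 against 29.05, 60.7 and 43.9 (log2 fold change -2.01 ± 0.49, adjusted p = 0.000914). With median-of-ratios or upper-quartile scaling, the stricter count filter, or without EV library 1 or 3 or YAP5SA library 1 or 3, 3 of the list rose, and with total count alone 2. TAZ4SA libraries had 53.9, 45.7 and 145 CPM of Hmgcs1. In the direct test 11 genes of the list were higher in YAP5SA than in TAZ4SA. Of 14 genes of fatty acid synthesis 6 rose and 5 fell, and 4 and 7 with total count alone. The elongase gene Elovl6 was 16.6, 8.98 and 16.3 CPM against 85.3, 135 and 108 (log2 fold change -2.97 ± 0.44, adjusted p = 3.61e-06). Among 14 adipogenic and lipid storage genes 6 rose and 2 fell, or 4 and 4 with total count alone, and 1 fell without EV library 3 or YAP5SA library 1. The fatty acid binding protein gene Fabp5 was 592, 714 and 606 CPM against 62.4, 89.05 and 60.4 (log2 fold change 3.17 ± 0.20, adjusted p = 1.06e-11), and the triglyceride lipase gene Pnpla2 was 153, 131 and 134 against 17.5, 21.6 and 19.7 (log2 fold change 2.83 ± 0.18, adjusted p = 1.95e-11).

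Clearance pathways showed no common direction in the lysosome, with 12 of 32 tested genes higher and 13 lower (5 and 17 with scaling by total count alone). Smpd1, acid sphingomyelinase, was 156, 136 and 148 CPM against 43.8, 47.1 and 45.7 (log2 fold change 1.69 ± 0.14, adjusted p = 5.03e-10). The collagen-degrading protease gene Ctsk was 3.75, 3.53 and 3.86 CPM against 30.5, 48.5 and 31.7 (log2 fold change -3.31 ± 0.21, adjusted p = 1.45e-11), and Gla, alpha-galactosidase A, was 50.2, 49.8 and 48.4 against 182, 208 and 201 (log2 fold change -2.00 ± 0.19, adjusted p = 4.48e-09). Against TAZ4SA 17 lysosomal genes were higher in YAP5SA and 2 lower. Of 22 autophagy genes 13 rose and 3 fell (7 and 5 with total count alone), with the LC3 gene Map1lc3a at 141, 135 and 128 CPM against 45.9, 40.8 and 46.9 (log2 fold change 1.59 ± 0.16, adjusted p = 1.31e-08) and the initiating kinase gene Ulk2 at 48.6, 51.9 and 48.3 against 105, 108 and 110.3 (log2 fold change -1.12 ± 0.10, adjusted p = 1.19e-09).

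Of the 47 programs the small leucine-rich proteoglycans had the lowest median. Small leucine-rich proteoglycans bind collagen fibrils and growth factors, and 8 of the 11 tested fell and 1 rose, with a median log2 fold change of -3.01. Decorin (Dcn, ENSMUSG00000019929, chr10:97479609-97518143) was 38.1, 71.8 and 52.3 CPM in YAP5SA and 2181, 2729 and 2391 in EV (log2 fold change -5.49 ± 0.54, adjusted p = 9.72e-09). Aspn was 6.73, 10.4 and 8.36 against 128, 271 and 161 (log2 fold change -4.45 ± 0.64, adjusted p = 1.97e-06), and Ogn was 18.5, 28.9 and 21.5 against 295, 683 and 377 (log2 fold change -4.29 ± 0.53, adjusted p = 2.88e-07). The groups did not overlap for any of these 3 genes. Both Aspn and Ogn overlap the span of Cenpp on the opposite strand, and overlap with its exons was not examined. The member that rose was Podnl1, at 394, 273 and 310.3 CPM against 53.7, 57.3 and 57.03 (log2 fold change 2.54 ± 0.16, adjusted p = 1.32e-11). The direct comparison with TAZ4SA went the same way, with 8 genes lower in YAP5SA and 1 higher. Dcn was 359, 527 and 362 CPM in TAZ4SA, a difference of -2.94, adjusted p = 7e-05. Against the sub-confluent cells 4 genes were lower in YAP5SA and 1 higher. Dcn was 77.3, 236 and 482 CPM in those cells (-2.29, adjusted p = 0.0002), and Lum (lumican) was not called against them (-0.39, adjusted p = 0.494). The list summed to 3087 to 3535 CPM in YAP5SA, 5596 to 6479 in EV and 2946 to 5020 in the sub-confluent cells.

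Of 18 matricellular and adhesive glycoproteins 10 fell and 4 rose. Postn (periostin) was 51.95, 78.1 and 62.7 CPM in YAP5SA and 2316, 3433 and 3224 in EV (log2 fold change -5.54 ± 0.49, adjusted p = 1.66e-09). Spp1 (osteopontin) was 29.1, 15.7 and 34.8 against 1493, 2291 and 1859 (log2 fold change -6.15 ± 0.44, adjusted p = 8.81e-11). Both were also below the sub-confluent cells (-3.00, adjusted p = 2.97e-06 and -4.51, adjusted p = 4.61e-09). Fibronectin (Fn1) was 6775, 9698 and 7733 CPM against 16535, 16815 and 19059 (log2 fold change -1.11 ± 0.19, adjusted p = 1.47e-05). Ccn3 was near 0 in YAP5SA (0.0513, 0.0981 and 0 CPM) and 5.87, 4.34 and 4.73 in EV, a ratio of counts of 92.97 (95% counting interval 31.5 to 453), so that members of the CCN family moved in opposite directions. Thrombospondin 1 (Thbs1) was 2585, 1611 and 2029 CPM against 407, 869 and 606 and rose (log2 fold change 1.73 ± 0.31, adjusted p = 3.87e-05). Of 17 matrix proteases 11 fell and 3 rose. The gelatinase genes were Mmp2, at 744, 875 and 795 CPM against 3425, 5124 and 4175 (log2 fold change -2.40 ± 0.25, adjusted p = 2.79e-08), and Mmp9, at 0.103, 0.442 and 0.253 against 20.8, 23.1 and 14.4 (log2 fold change -6.14 ± 0.73, adjusted p = 1.37e-07). Mmp2 was also low in the sub-confluent cells (582, 884 and 1232 CPM), and YAP5SA did not differ from them by a called amount (-0.16, adjusted p = 0.568). Against those cells 7 of the 17 proteases were lower in YAP5SA and 5 higher. The proteases summed to 2337 to 2439 CPM in YAP5SA, 6800 to 8663 in EV and 2280 to 3730 in the sub-confluent cells. The protease inhibitors and crosslinking enzymes were divided, 9 of 18 higher and 8 lower, and 6 higher and 8 lower with scaling by total count alone.

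Collagens did not move as a group. Of 12 fibrillar and associated collagen genes 3 rose and 3 fell (5 fell with total count scaling), and of 13 basement membrane and other collagens 4 rose and 5 fell. The type I chains Col1a1 (0.05, adjusted p = 0.875) and Col1a2 (0.09, adjusted p = 0.704) and Col3a1 (-0.52, adjusted p = 0.142) were not called, and their libraries overlapped. Col3a1 was called lower, at -0.56, with only these groups in the fit, at -0.53 with no count filter and at -0.89 with total count scaling. Col5a2, a regulator of fibril width, was 1982, 1798 and 1954 CPM in YAP5SA and 478, 753 and 517 in EV (log2 fold change 1.71 ± 0.21, adjusted p = 1.76e-07). Col16a1, a fibril-associated collagen, was 69.3, 54.1 and 67.3 against 275, 342 and 295 (log2 fold change -2.26 ± 0.20, adjusted p = 1.54e-09), and Col6a3 of the microfibrils was 181, 126 and 184 against 672, 599 and 680.1 (log2 fold change -1.99 ± 0.21, adjusted p = 2.09e-08). The basement membrane genes Col4a1 (-0.88, adjusted p = 0.000579) and Col4a2 (-1.23, adjusted p = 5.68e-06), which lie head to head, fell together while Col4a5 rose (1.24, adjusted p = 1.05e-08). Without YAP5SA library 2, 3 basement membrane and other collagens fell. Of 11 laminin and perlecan genes 8 rose and 2 fell (1 fell without EV library 3 or YAP5SA library 2 or 3). Lama5, a chain of many epithelial basement membranes, was 92.4, 72.96 and 55.4 CPM against 0.76, 0.668 and 0.664 (log2 fold change 6.71 ± 0.40, adjusted p = 6e-12). Lama4, a chain of mesenchymal and vessel basement membranes, was 15.3, 17.7 and 21.5 against 114, 157 and 140.0 (log2 fold change -2.92 ± 0.34, adjusted p = 1.32e-07). Of 15 elastic fibre genes 4 rose and 7 fell, and 1 and 8 with total count scaling, with Ltbp1 (1.59, adjusted p = 9.54e-08) and Emilin1 (-2.67, adjusted p = 6.45e-11) among them.

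**Figure D4:**
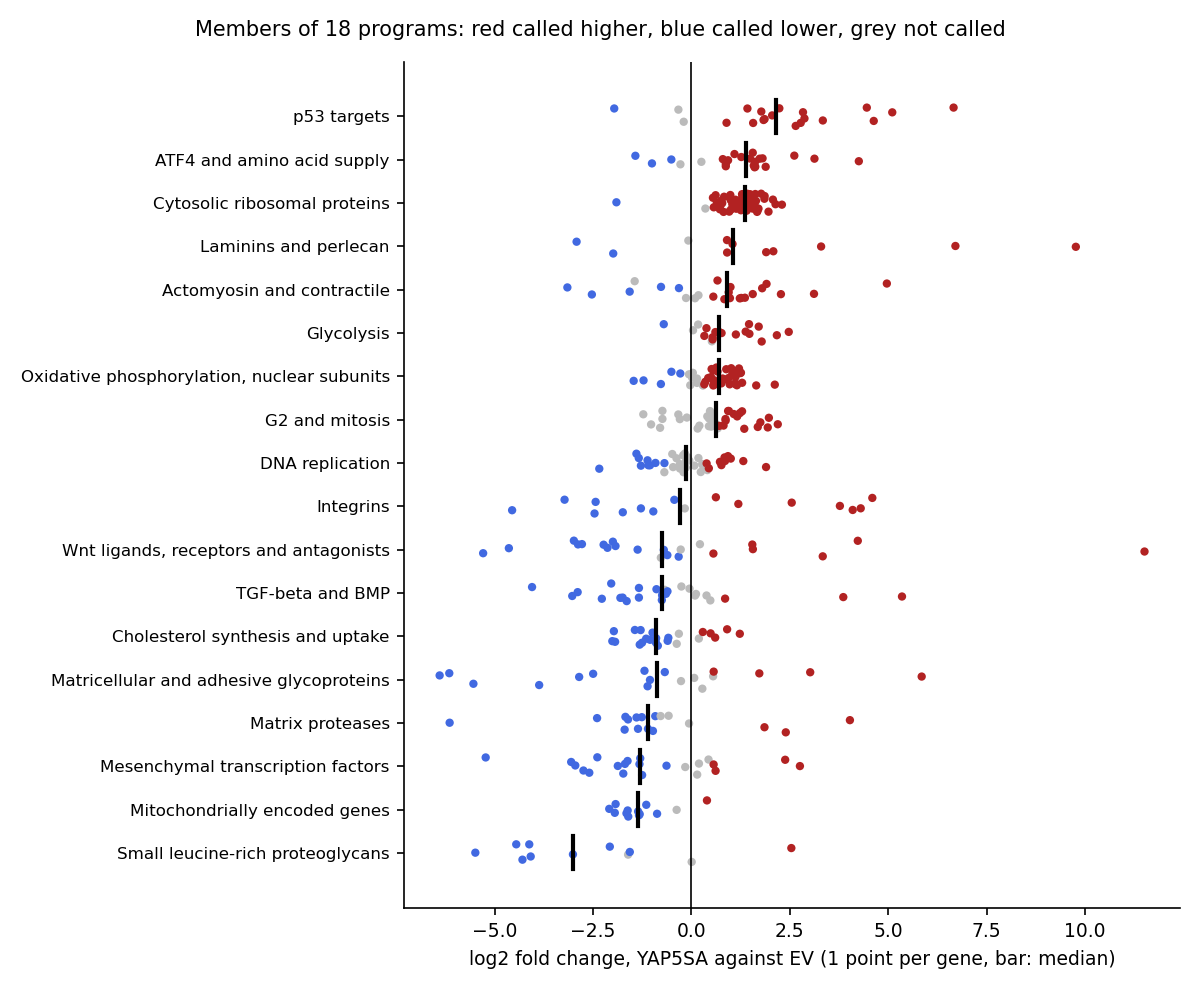
Log2 fold change of YAP5SA over EV for each tested member of 18 gene lists, 1 point per gene, red if called higher, blue if called lower and grey if not called, with a bar at the median. The ribosomal proteins form a narrow cluster above 0 apart from 1 called lower, whereas integrins, Wnt genes and matricellular genes spread over both sides.

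Adhesion receptors moved in both directions. Of 16 integrin genes 7 rose and 8 fell. The laminin receptor chains Itga3, at 387, 279 and 276 CPM in YAP5SA and 15.5, 15.6 and 16.6 in EV (log2 fold change 4.30 ± 0.26, adjusted p = 6.17e-12), and Itga7, at 92.2, 89.8 and 87.6 against 3.04, 4.49 and 3.63 (log2 fold change 4.60 ± 0.32, adjusted p = 4.5e-11), were among those that rose. The collagen receptor chain Itga11 was 7.91, 8.19 and 8.55 against 42.9, 48.1 and 44.8 (log2 fold change -2.46 ± 0.37, adjusted p = 4.12e-06), and Itga8, a receptor chain for fibronectin and related ligands, was 1.49, 3.29 and 2.28 against 46.6, 71.2 and 49.5 (log2 fold change -4.56 ± 0.33, adjusted p = 8.39e-11). Itga3 and Itga7 were higher and Itga8 and Itga11 lower than in TAZ4SA too (log2 differences 1.20, 2.07, -2.52 and -1.34, all called). Of 20 focal adhesion genes 12 rose and 2 fell (Tns1 and Nedd9, the latter not called without EV library 2 or YAP5SA library 3). Of 24 actomyosin and contractile genes 15 rose and 5 fell. The light chain gene Myl12a was 1059, 969.8 and 943 CPM against 262, 277 and 252 (log2 fold change 1.91 ± 0.13, adjusted p = 5.01e-11) and calponin 2 (Cnn2) was 1246, 1303 and 1228 against 376, 319 and 392 (log2 fold change 1.80 ± 0.12, adjusted p = 2.06e-11), while smooth muscle actin (Acta2) was 187, 159 and 152 against 321, 212 and 317 and fell (log2 fold change -0.77 ± 0.22, adjusted p = 0.00355). Of 10 cadherins and catenins 5 rose and 3 fell, and 4 and 5 with total count scaling. Pkp2, a plakophilin of desmosomes, was 24.2, 26.8 and 28.2 CPM against 0.549, 0.907 and 1.06 (log2 fold change 4.97 ± 0.29, adjusted p = 4.42e-12). Beta-catenin (Ctnnb1) was 287, 275 and 287 CPM against 1091, 944 and 1098 (log2 fold change -1.88 ± 0.11, adjusted p = 2.95e-12), and the mesenchymal cadherin gene Cdh11 fell by 2.16 on the log2 scale, while Cdh2 rose by 1.06.

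Of 26 tested genes of TGF-β and BMP signalling 16 fell and 3 rose. The type I receptor gene Tgfbr1 was 3.23, 4.46 and 5.64 CPM in YAP5SA and 68.3, 70.6 and 80.6 in EV (log2 fold change -4.05 ± 0.27, adjusted p = 2.7e-11), and it was lower than in TAZ4SA and in sub-confluent cells (-1.58, adjusted p = 7.93e-05 and -2.95, adjusted p = 2.98e-09). Among the genes that rose, Inhba, which encodes a subunit of activin A, was 26.4, 21.98 and 27.7 CPM against 0.675, 3.58 and 1.06 (log2 fold change 3.86 ± 0.46, adjusted p = 1.39e-07). Fst, which encodes the activin antagonist follistatin, was 20.6, 26.1 and 26.4 against 1.01, 0.382 and 0.354 (log2 fold change 5.35 ± 0.41, adjusted p = 1.98e-10). Of 22 Wnt ligands, receptors and antagonists 13 fell and 6 rose. A pair of ligand genes had no count in EV. Wnt7a was 19.8, 12.5 and 15.97 CPM in YAP5SA, at least 359-fold above the limit of 3 counts over the EV group, and Wnt7b was 22.3, 13.9 and 11.3, at least 361-fold above it. Both were also higher than in TAZ4SA (2.90, adjusted p = 1.7e-06 and 3.09, adjusted p = 1.8e-05). The secreted antagonist gene Sfrp1 was 0.462, 1.13 and 0.443 CPM against 20.6, 40.01 and 21.9 (log2 fold change -5.29 ± 0.35, adjusted p = 2.71e-11), and Dkk3 was 4.93, 6.43 and 7.41 against 49.9, 46.4 and 52.03 (log2 fold change -2.99 ± 0.26, adjusted p = 1.3e-09). Notch genes were fewer, with 5 of 10 higher and 2 lower, and the ligand gene Jag1 was 106, 119 and 105 CPM against 20.2, 13.6 and 18.98 (log2 fold change 2.65 ± 0.25, adjusted p = 5.46e-09).

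In the lists of ligand, receptor and feedback genes of receptor tyrosine kinases, RNA levels moved in both directions. The IGF system had 36.4% of its members higher and 36.4% lower, close to the 36.3% and 34.9% of all genes tested. Of 19 FGF, PDGF, VEGF and HGF genes 11 fell and 6 rose. The receptor gene Pdgfra was 156, 291 and 219.7 CPM against 1212, 1193 and 1176 (log2 fold change -2.43 ± 0.30, adjusted p = 2.17e-07) and Pdgfrb fell as well (-2.00, adjusted p = 1.69e-11), while the ligand gene Pdgfa was 71.1, 53.8 and 53.5 against 15.96, 17.3 and 17.5 (log2 fold change 1.81 ± 0.11, adjusted p = 1.38e-11). The stromal ligand gene Fgf7 was 12.1, 17.5 and 16.7 against 98.4, 154 and 132 (log2 fold change -3.06 ± 0.25, adjusted p = 4.8e-10). Of 8 genes for ERBB receptors and EGF-like ligands 4 rose and 1 fell (2 with total count scaling), with Hbegf at 24.2, 23.6 and 22.9 CPM against 2.24, 4.44 and 2.88 (log2 fold change 2.89 ± 0.26, adjusted p = 2.32e-09) and Nrg1 at 102, 114 and 122 against 33.8, 40.4 and 32.3 (log2 fold change 1.67 ± 0.17, adjusted p = 1.27e-08). Of 21 ERK feedback and AP-1 genes 11 fell and 7 rose. Egr1, an immediate early factor, was 8.37, 7.26 and 5.07 CPM against 137, 156 and 114 (log2 fold change -4.29 ± 0.47, adjusted p = 3.9e-08), and Spry4, a feedback inhibitor of ERK, was 0.975, 0.638 and 0.95 against 7.73, 12.2 and 8.98 (log2 fold change -3.50 ± 0.34, adjusted p = 9.29e-09), whereas Junb rose (1.84, adjusted p = 5.09e-05). In the IGF system 4 of 11 rose and 4 fell, with a median of 0.05, and with total count scaling 3 rose and 6 fell, with a median of -0.33. Igf2 was 1105, 1329.7 and 970.2 CPM against 100.3, 284 and 169 (log2 fold change 2.62 ± 0.50, adjusted p = 8.02e-05), and Igfbp5, a binding protein for IGFs, was at 1 count over the YAP5SA group and 4.35, 12.3 and 6.42 CPM in EV.

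Of 19 chemokine and cytokine genes 7 fell and 5 rose. The chemokine gene Cxcl12, which retains blood progenitors in stroma, was 41.8, 50.9 and 50.9 CPM in YAP5SA and 775, 1125 and 906 in EV (log2 fold change -4.29 ± 0.32, adjusted p = 1.54e-10). Ccl2, which draws in monocytes, was 4.16, 1.72 and 2.03 against 68.1, 162 and 91.01 (log2 fold change -5.33 ± 0.39, adjusted p = 1.21e-10), and the alarmin gene Il33 was 0.103, 0.54 and 0.253 against 30.02, 20.8 and 31.99 (log2 fold change -6.48 ± 0.67, adjusted p = 1.78e-08). All 3 were below TAZ4SA and below the sub-confluent cells by called amounts, and 12 of the 19 genes were lower in YAP5SA than in TAZ4SA and 1 higher. Of 11 complement genes 5 fell and 2 rose, but only 1 rose with DESeq2, with upper-quartile or total count scaling, with only these groups in the fit, with the replicate block, and without EV library 1 or 3 or YAP5SA library 1 or 3. The fall included C3 at 0.975, 2.600 and 0.76 CPM against 41.8, 33.8 and 39.2 (log2 fold change -4.68 ± 0.50, adjusted p = 3.5e-08). Of 30 genes of the interferon response and antigen presentation 9 rose and 7 fell, and 7 rose and 12 fell with scaling by total count alone. Bst2 (tetherin) was 64.02, 72.5 and 61.2 CPM against 11.2, 12.5 and 10.9 (log2 fold change 2.51 ± 0.24, adjusted p = 5.13e-09).

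Of 22 mesenchymal transcription factors 14 fell and 4 rose (2 with total count scaling), with a median of -1.31, and 13 were lower than in TAZ4SA and 1 higher. Sox9, the factor of cartilage progenitors, was 3.29, 3.88 and 3.04 CPM in YAP5SA and 147, 102 and 135 in EV (log2 fold change -5.23 ± 0.30, adjusted p = 2.85e-12), with 22.3, 21.7 and 39.3 CPM in TAZ4SA. Prrx2 was 2.67, 4.42 and 3.55 against 37.9, 14.5 and 36.1 (log2 fold change -3.06 ± 0.29, adjusted p = 4.07e-09). The factors that rose included Klf4, at 82.3, 102 and 72.5 CPM against 14.2, 18.9 and 16.1 (log2 fold change 2.38 ± 0.17, adjusted p = 8.39e-11), and Foxf1, at 16.6, 19.3 and 12.8 against 2.53, 1.96 and 2.699 (log2 fold change 2.76 ± 0.20, adjusted p = 8.28e-11). Of 14 tested Hox genes 9 fell and 5 rose, with Hoxa7 at 12.9, 9.81 and 11.7 CPM against 35.5, 31.9 and 33.9 (log2 fold change -1.56 ± 0.12, adjusted p = 1.21e-10) and Hoxc4 at 7.29, 7.75 and 6.08 against 3.12, 2.24 and 2.96 (log2 fold change 1.34 ± 0.19, adjusted p = 1.96e-06); 3 rose without EV library 1 or 3 or YAP5SA library 1, with upper-quartile scaling or with the stricter count filter, and 2 with total count alone. Of 31 axon guidance genes 14 fell, 11 of them by at least 2-fold, and 10 rose, 6 of them by at least 2-fold. Among those that rose, the ephrin receptor gene Epha2 was 96.6, 64.9 and 85.3 CPM against 12.7, 17.9 and 12.9 (log2 fold change 2.51 ± 0.28, adjusted p = 7.18e-08).

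**Figure D5:**
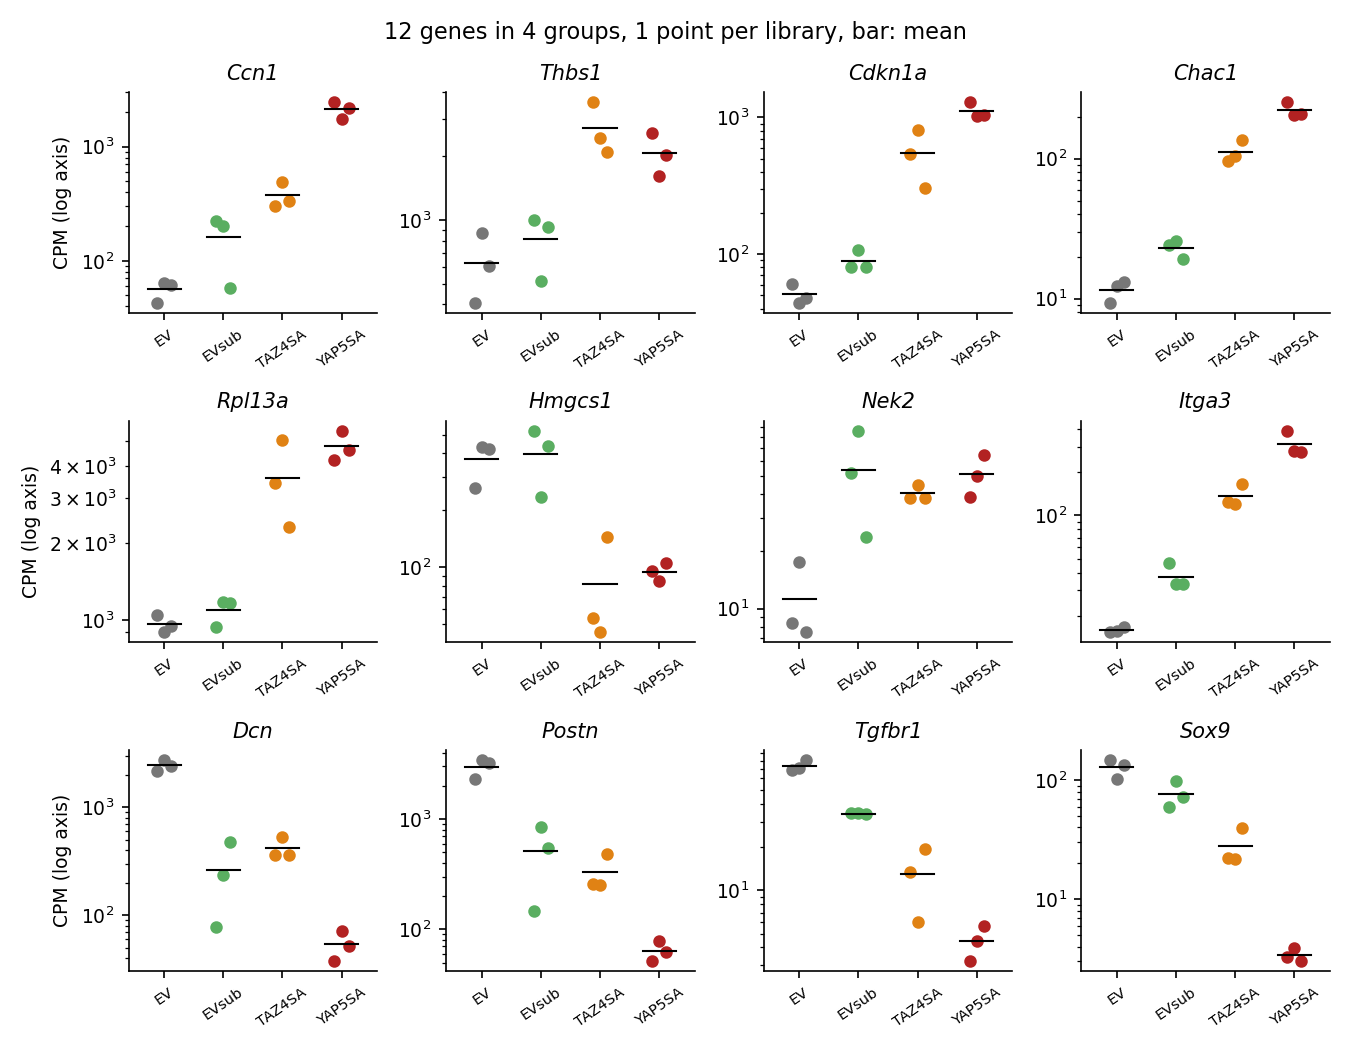
CPM (log axis) of 12 genes in the libraries of EV, EVsub, TAZ4SA and YAP5SA, 1 point per library with a bar at the group mean. YAP5SA is the highest group for Ccn1, Chac1 and Itga3 and the lowest for Dcn, Postn, Tgfbr1 and Sox9, whereas Nek2 spreads widely within EVsub.

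Some marker genes of other cell types differed between the groups, not always in the same direction within a list, and their part in the results above was not tested. Of 10 macrophage markers 4 were tested, and their summed level was 84.1 to 133 CPM in YAP5SA and 3.39 to 4.96 in EV. Csf1r, the receptor for CSF1, was 53.4, 30.4 and 36.1 CPM against 0.633, 0.477 and 0.796 (log2 fold change 5.96 ± 0.41, adjusted p = 4.14e-11), and Cd68 was 77.8, 76.4 and 46.5 against 3.504, 2.48 and 3.54 (log2 fold change 4.39 ± 0.40, adjusted p = 2.8e-09), but Csf1r lies opposite Hmgxb3, and reads of both may not be separable. Itgam rose too (64 counts against 1) and Lyz2 was not called. The defining markers Adgre1, Tyrobp and C1qa had 0 counts in both groups and Ptprc had 4 counts in each. Of 9 epithelial markers 2 were tested, with a summed level of 7.51 to 9.06 CPM against 0.133 to 0.338, carried by Krt14 (ratio of counts 281 (95% counting interval 77.3 to 2327)). The other, Cdh1, was lower, with 2 counts in YAP5SA and 14 in EV, while Epcam and Krt5 were at 0. Of 8 endothelial markers 4 were tested, of which 2 rose and 1 fell. They summed to 7.67 to 8.83 CPM against 2.91 to 4.91, with Kdr, the VEGF receptor 2 gene, at 6.21, 6.72 and 6.34 CPM against 0, 0.0477 and 0.177. Cdh5 rose as well (20 counts against 1), Tek, the angiopoietin receptor gene, was 1.18, 0.245 and 0.38 CPM against 2.66, 2.196 and 4.29 and fell (-2.32, adjusted p = 4.23e-05), Vwf was not called (0.29, adjusted p = 0.686), and Tie1 was at 0. Of 12 fibroblast markers 3 rose (Fap, Thy1 and Vim) and 6 fell, among them Dcn (-5.49), Lum (-4.08) and Pdgfra (-2.43). The 12 summed to 28554 to 33506 CPM in YAP5SA and 38021 to 41814 in EV. All 8 smooth muscle markers were tested, 5 of which rose and 2 fell, and they summed to 430.2 to 450.2 CPM against 290.4 to 452. Of 7 skeletal muscle markers Acta1 alone was tested and called higher, on 12 counts against 1, and Myod1 and Myf5 were at 0 in both groups. Of 6 adipocyte markers 3 were tested and 1 rose (Lipe, 0.58, adjusted p = 0.00397, not called with total count scaling). Of 9 cartilage and bone markers 2 were tested, of which Sox9 fell and Runx2 was not called, though it was called lower with upper-quartile or total count scaling, with the stricter count filter and without YAP5SA library 2. Of 8 neural markers 5 were tested, 2 of which rose and 2 fell, with summed levels of 6.13 to 9.76 CPM against 6.35 to 23.8.

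Genes at the far ends of the comparison mostly had few or no counts in one group, which a ranking by fold change favours. Of the 10220 DE genes 48 had no count in EV and 49 none in YAP5SA. Upk1b, a plaque protein of the urothelium, was 408, 302 and 286 CPM in YAP5SA and had 1 count over the EV group, a ratio of 22474 (95% counting interval 4033 to 887702), and it was also above TAZ4SA (3.09, adjusted p = 8.29e-08). The betaine transporter gene Slc6a12 was 44.5, 26.9 and 27.8 CPM in YAP5SA and 0 in EV (at least 747-fold), and the annexin gene Anxa8 was 36.2, 20.999 and 22.9 against 0 (at least 602-fold). These did not differ from TAZ4SA by a called amount (0.26, adjusted p = 0.559 and 0.27, adjusted p = 0.569). Pax8, a transcription factor of thyroid and kidney, was 15.2, 8.78 and 7.79 CPM against 0 in EV (at least 241-fold), and the muscle cadherin gene Cdh15 was 33.3, 25.8 and 17.2 against a single count (ratio 1747 (95% counting interval 313 to 69055)). Both were higher than in TAZ4SA (5.28, adjusted p = 1.27e-06 and 3.38, adjusted p = 1.65e-06). The neuropeptide gene Vip was the reverse case, at 13.5, 9.42 and 9.38 CPM in YAP5SA, 167, 102 and 167 in TAZ4SA and 0 in EV. The remaining large rises were Robo3, Il31ra, Crct1 and Serpinb9g, all at 0 in EV, the last from a family of near-identical genes.

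Among the largest falls, the receptor gene Megf10 was 0, 0.196 and 0.19 CPM in YAP5SA and 37.5, 25.7 and 43.8 in EV (log2 fold change -8.08 ± 0.56, adjusted p = 4.38e-11). Cp, ceruloplasmin, was 0.719, 0.638 and 0.76 against 57.4, 178 and 82.3 (log2 fold change -7.22 ± 0.41, adjusted p = 2.82e-12), and Egr2, an immediate early factor, was 0.103, 0.0981 and 0.0634 against 15.5, 12.7 and 12.6 (log2 fold change -7.16 ± 0.49, adjusted p = 4.04e-11). Each of these was above 12 CPM in all EV libraries and below 1 in all YAP5SA libraries. Cdk15 had no count in YAP5SA and was 6.797, 5.73 and 7.26 CPM in EV (at least 123-fold lower), and Wfdc18 was at 0 against 6.54, 3.34 and 5.35 (at least 95.5-fold lower). Plxdc1 was 0.0513, 0 and 0.127 CPM against 12.1, 13.5 and 14.1, and Nrep, Aspg, Fam19a1, Speer4a and Dmrtc1c2 completed the list, the last 2 from families of near-identical copies.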

How the data were processed

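RNA-Seq counts of 24 NIH 3T3 libraries were used, 3 in each of 8 groups, grouped by their titles, and YAP5SA was compared with EV, TAZ4SA and EVsub. The deposited values are raw counts, 1 whole number per Ensembl gene identifier and library, which the authors had not normalized. By the methods of the study the authors made stranded libraries of polyadenylated RNA and processed them with bcbio-nextgen and Hisat2 on mm10. The methods also name Salmon with tximport for gene counts, and do not say whether the deposited whole-number counts stem from those or from the alignments, nor how strand was used, so paralogs and genes that overlap on opposite strands may share reads. Symbols and coordinates came from GENCODE M21 (GRCm38), which matched 37607 of 39017 identifiers, and promoters from RefSeq (GRCm38.p6).

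Genes whose mean count reached 5 were scaled by TMM and tested with edgeR 4.0.16 (R 4.3.3, glmQLFit and glmQLFTest), 1 coefficient per group, with Benjamini-Hochberg adjustment over 14361 genes. The code was tested on simulated data in which few genes changed, which does not test the scaling where most genes are DE. Intervals and limits (95%, 3 counts for a total of 0) cover counting error only, since without molecular identifiers several reads can stem from 1 molecule. The other tools were DESeq2 1.42.0, Python 3.11.15, numpy 2.4.6, pandas 2.3.3, scipy 1.17.1 and matplotlib 3.10.9.

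The comparison and the 56 gene lists (47 programs and 9 sets of cell type markers, drawn up from general knowledge) were chosen with earlier results of these data known. Genes were named by rule: Yap1, Wwtr1, the target, TEAD and Hippo lists, the 12 largest rises and 12 largest falls among protein-coding DE genes whose mean count reached 50 with no overlap between groups, up to 3 of each per list, and the 6 most abundant 2-fold changed genes in each direction. A few further list members were named after their values were seen. Some genes that the rule takes in are not reported here. The alternatives were DESeq2, median-of-ratios, upper-quartile or total count scaling (the last chosen after seeing the data), no count filter or at least 10 counts in every library, only the compared groups in the fit, the replicate number as a block, and each library left out in turn.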

Additional observations from a re-analysis of the deposited data

How the results depend on the processing

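Against EV, 10220 genes were DE, and 8507 to 10590 under the alternatives with all libraries; with 1 library left out there were 9620 to 9801. With the 2-fold minimum the count was 5683, against 3972 to 6428 and, with 1 library left out, 5570 to 5642. Against EVsub it was 9880, with 8291 to 10146 and 9228 to 9616. Against TAZ4SA it was 6087, with 4656 to 7210 when 1 library was left out (4656 without TAZ4SA library 3), and 2910 when only YAP5SA and TAZ4SA were in the fit, in which the spread is estimated from 6 libraries. Total count scaling gave 10340 DE genes against EV, of which 34.5% were higher, in place of 51.0%.

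No pairing by replicate number was seen between YAP5SA and EV: deviations of libraries with the same number correlated at 0.00601, -0.0573 and -0.0189. The values were -0.0472, 0.0618 and 0.123 for TAZ4SA and -0.0337, -0.156 and -0.114 for EVsub. So few values cannot exclude a pairing. With the number as a replicate block 10148 genes were DE against EV, 5672 with the 2-fold minimum, 5959 against TAZ4SA and 9813 against EVsub, and the block changed the call of none of the 184 genes examined.

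Of those genes Wwtr1 was the one whose direction turned, to -0.23 with total count scaling. DESeq2 and median-of-ratios scaling changed no call among them, and leaving out EV library 2 ended 5 calls. At this depth genes with 1 to 3 counts in a group have wide counting intervals, and their ratios are given with those intervals.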
